A study of Mus musculus with 6 samples.

Results

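The 10 immediate early genes followed here in mouse spleen were Fos, Fosb, Jun, Junb, Egr1, Egr2, Ier2, Dusp1, Atf3 and Nr4a1. They were taken by name from the array annotation, which gives 18193 genes at least 1 probe set of their own, and the 10 genes were read by 12 such probe sets. Jun and Egr2 had 2 probe sets each, and no probe set was shared between one of these genes and another gene. The garlic-fed group was 3 male C57BL/6J mice whose diet held 4% lyophilized raw garlic powder, and the control group was 3 such mice whose diet held 4% cellulose instead. The mice were 8 weeks old at the start, and spleens were taken after 15 weeks, frozen, and hybridized to Affymetrix mouse arrays with 1 array per mouse. The rest of the diet was shared by both groups, the mice were killed by cervical dislocation, and the time until freezing is not given in the sources used here. All 7 B cell markers, 7 T cell markers and 8 red pulp macrophage markers with a probe set were bright enough to be tested. RNA came from the whole spleen, so a higher signal from more cells of a type and a higher signal per cell cannot be told apart.

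Immediate early genes are transcribed within minutes of a signal reaching the cell, because the proteins that switch them on are already present and only need to be phosphorylated. Growth factors, antigen receptors and stress act through the MAP kinases (ERK, JNK and p38) on factors such as SRF with its Elk partners and CREB, which sit at the CArG box and the cAMP response element (CRE) of these genes. Most of the products are transcription factors: Fos and Jun proteins pair into AP-1, Egr proteins bind DNA through zinc fingers, and Nr4a1 is an orphan nuclear receptor that lymphocytes express after antigen receptor signaling. Dusp1 closes the loop, as it encodes a phosphatase that removes the activating phosphates from p38 and JNK.

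The promoters of 3 members are shown, since the garlic-fed and control signals did not overlap for Dusp1 and for 1 of the 2 probe sets of Egr2, and Fos is the classic member of the class. For Fos and Dusp1 the 250 bases before the annotated start site are printed 5′ to 3′, and for Egr2 a stretch of 30 bases around a CArG box, all from RefSeq on GRCm38.p6. Capitals mark the CRE (TGACGTCA) and its shorter core (TGACG) in Fos and Dusp1 and the CArG box in Egr2. Fos lies at chr12:85473640-85473889 on the plus strand, Dusp1 at chr17:26508473-26508722 on the minus strand and the Egr2 stretch at chr10:67537787-67537816 on the plus strand.
Fos: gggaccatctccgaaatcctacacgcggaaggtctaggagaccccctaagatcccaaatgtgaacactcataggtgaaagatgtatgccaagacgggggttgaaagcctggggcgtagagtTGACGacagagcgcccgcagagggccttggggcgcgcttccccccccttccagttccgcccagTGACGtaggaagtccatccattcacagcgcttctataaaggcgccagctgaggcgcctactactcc
Dusp1: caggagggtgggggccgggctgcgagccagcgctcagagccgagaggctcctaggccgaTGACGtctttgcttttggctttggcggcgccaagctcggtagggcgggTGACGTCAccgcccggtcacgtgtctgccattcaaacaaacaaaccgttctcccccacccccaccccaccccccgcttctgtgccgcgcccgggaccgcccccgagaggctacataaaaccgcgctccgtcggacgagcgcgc
Egr2: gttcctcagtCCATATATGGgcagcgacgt

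Windows from 250 bases before to 50 after a start site were found for 8 of the 10 genes, all but Egr1 and Ier2. The CRE core was present on one strand or the other in the windows of 7 of these 8 genes, that is all but Jun, and in 20.8% of all 32851 mouse promoter windows. The full CRE, which contains the core on both strands, was present in Dusp1 alone among the 8, where it spans positions -143 to -136, and in 1.79% of all windows. A CArG box was found in the windows of Egr2 alone among the 8 and in 1.63% of all windows. The TATAAA element was present in Fos and Junb (13.6% of all windows) and CCAAT in Atf3, Egr2, Jun and Junb (37.4%). Neither the AP-1 site TGACTCA (5.2% of all windows) nor the EGR site GCGTGGGCG (0.612%) was matched in the 8 genes. A match is a description of the letters and not evidence of a bound factor. Sites farther than 250 bases before a start were not searched, so the absence of a match does not mean that a gene lacks the site. The shares are per window, and the 8 genes had 12 windows.

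Values below are MAS5 signals, the brightness of a probe set on a linear scale. Fold changes were fitted with limma on log2 signals as garlic-fed minus control, over the 27022 probe sets bright enough to be tested, and adjusted p-values are Benjamini-Hochberg values over all of them. Of the 12 probe sets of the immediate early genes, 11 were tested (9 of the 10 genes), and Fosb was too dim. None of the 12 lay under the floor of 23.5 on any array. None of the 11 passed an adjusted p under 0.05, against 0.237% of all probe sets tested. At an unadjusted p under 0.05 there were 5 of the 11, against 11.0% of all probe sets tested, namely Fos, Ier2 and Dusp1 with higher signals in garlic-fed mice and both probe sets of Egr2 with lower ones. The diets did not overlap in 2 of the 11: in Dusp1 all 3 garlic-fed signals were higher (7.52% of all probe sets tested were of this kind), and in 1 probe set of Egr2 all 3 were lower (9.29%). The median log2 fold change of the 9 genes tested was 0.32, with 8 positive and 1 negative, and that of all 12262 genes tested was -0.028. Without garlic-fed mouse 2 the median of the immediate early genes was 0.03.

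**Figure D1:**
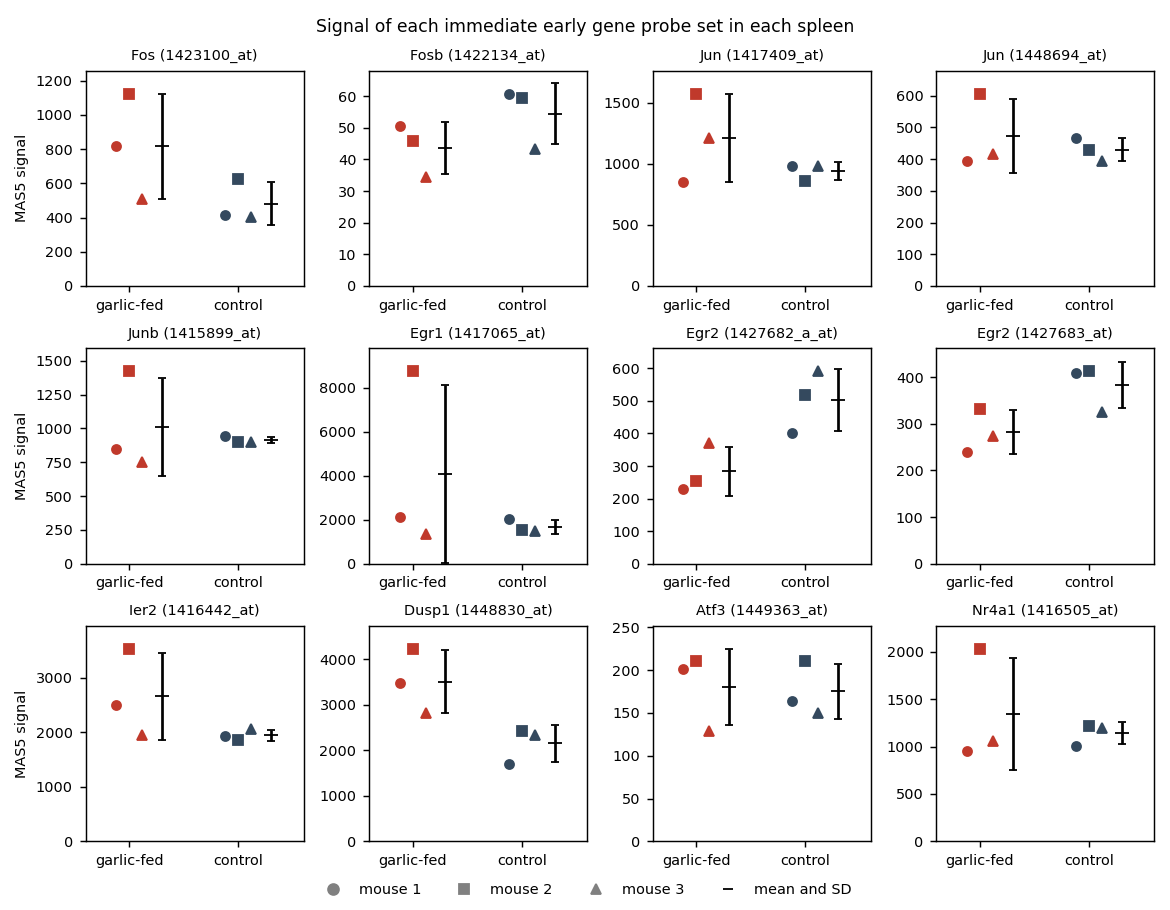
MAS5 signal (linear axis from 0) of the 12 probe sets of immediate early genes in 3 garlic-fed and 3 control spleens; symbols are single mice and the bar beside them is the mean with its SD. Garlic-fed mouse 2 had the highest signal in 8 of the 12 panels, and for Dusp1 all garlic-fed mice lie above all control mice, while for Egr2 1427682_a_at they lie below.

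Of the Fos family, Fos was high in garlic-fed mice 1 and 2, and Fosb was dim in all mice. Fos, whose protein pairs with Jun proteins, had signals of 816.5, 1124.5 and 511.2 in garlic-fed mice 1, 2 and 3, against 415.9, 627.9 and 400.9 in the control mice. Garlic-fed mice 1 and 2 lay above all control mice, and garlic-fed mouse 3 lay within the control range. The log2 fold change of Fos was 0.72, or 1.65-fold (standard error 0.27, unadjusted p = 0.0235, adjusted p = 0.357 from limma). Without garlic-fed mouse 2 it was 0.45 (adjusted p = 0.711), and without garlic-fed mouse 3 it was 1.02 (adjusted p = 0.09). Fosb, a close relative of Fos, was near the dim end of the array, with signals of 50.6, 45.8 and 34.6 in garlic-fed mice, against 60.8, 59.3 and 43.3 in control mice. These ranges overlap, and Fosb was left out of the test by its low mean.

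The Jun genes had small fold changes that leaned on garlic-fed mouse 2. Jun, the main partner of Fos, had signals of 853.5, 1573.9 and 1208 in garlic-fed mice, against 983.6, 855.5 and 983 in control mice by probe set 1417409_at. By its other probe set, 1448694_at, Jun had 393, 606.3 and 415.6 in garlic-fed mice, against 465.2, 429.1 and 394.3 in control mice. Garlic-fed mouse 2 was the highest of the 6 mice by both probe sets, and garlic-fed mouse 3 was above the controls by the first only. The log2 fold changes of Jun were 0.32 and 0.11, a difference of 0.21 between probe sets of 1 mRNA (adjusted p = 0.598 and 0.878). Junb, which encodes a Jun protein that can restrain Jun activity, had signals of 847.1, 1420.7 and 750.5 in garlic-fed mice, against a tight 940.3, 901.9 and 898.7 in control mice. Garlic-fed mouse 2 was thus above the control range of Junb, and garlic-fed mice 1 and 3 were below it. Its log2 fold change was 0.08 (95% confidence interval -0.37 to 0.54), and -0.2 without garlic-fed mouse 2.

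Egr1 and Egr2 had fold changes of opposite sign. Egr1, a zinc finger factor switched on by ERK signaling, had signals of 2132.5, 8748.3 and 1362.1 in garlic-fed mice, against 2041.7, 1516.7 and 1493.5 in control mice. Garlic-fed mouse 2 had 5.25 times the geometric mean of the control mice, the largest departure of any of the 12 probe sets on any array, while the other garlic-fed mice lay just above and just below the control range. The fitted log2 fold change of Egr1 was 0.82 with a standard error of 0.53 (95% confidence interval -0.35 to 1.99, adjusted p = 0.63), and without garlic-fed mouse 2 it was 0.03. A single spleen thus gave nearly all of the difference of Egr1.

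Egr2, a relative of Egr1 that is known in T cells for restraining activation, had lower signals in the garlic-fed mice. Probe set 1427682_a_at gave 228.7, 254.3 and 369.8 in garlic-fed mice, against 401.9, 519.7 and 590.5 in control mice, so that all garlic-fed mice lay below all control mice. Probe set 1427683_at gave 239.8, 331.8 and 273.4 in garlic-fed mice, against 409.5, 412.1 and 326.1 in control mice. Here the groups overlapped by garlic-fed mouse 2 and control mouse 3 alone. The log2 fold changes were -0.84 (standard error 0.21, unadjusted p = 0.00269, adjusted p = 0.163) and -0.45 (standard error 0.18, adjusted p = 0.388). The difference of Egr2 did not rest on garlic-fed mouse 2, with log2 fold changes of -0.78 and -0.57 without it. With any 1 array left out the first probe set lay between -1.05 and -0.7, with adjusted p from 0.0576 to 0.389. By their brightest probe sets, the 7 T cell markers had log2 fold changes between -0.22 and -0.03. Cd4 (-0.22), Cd3e (-0.21) and Cd3g (-0.19) were lower in all garlic-fed mice (9.29% of all probe sets tested were of this kind). The dimmer probe set 1427779_a_at of Cd4 had -0.6, with overlapping groups. Summed signals of the 7 markers were 12200 to 13900 in garlic-fed mice and 13800 to 14300 in control mice. The 7 B cell markers had a median of -0.15, with Cd22 (-0.23) lower in all garlic-fed mice, and sums of 46600 to 55000 in garlic-fed mice and 51100 to 57700 in control mice. None of these markers was under the floor on all arrays, and their part in the difference of Egr2 was not tested.

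Dusp1 was higher in all garlic-fed mice than in any control mouse. Its signals were 3484, 4218.5 and 2829.6 in garlic-fed mice, against 1690.5, 2426.8 and 2332.1 in control mice. The closest pair was garlic-fed mouse 3 and control mouse 2. The log2 fold change was 0.71, or 1.63-fold (standard error 0.17, 95% confidence interval 0.33 to 1.08, unadjusted p = 0.00181, adjusted p = 0.137). It was 0.56 without garlic-fed mouse 2 (adjusted p = 0.345), and with any 1 array left out it stayed between 0.54 and 0.85. Ier2, which encodes a small nuclear protein, had signals of 2510.7, 3525.2 and 1956.8 in garlic-fed mice, against 1931.9, 1863.1 and 2065.5 in control mice. Garlic-fed mice 1 and 2 were above the controls and garlic-fed mouse 3 was among them, the same order as for Fos. The log2 fold change of Ier2 was 0.41 (standard error 0.18, unadjusted p = 0.0456, adjusted p = 0.441), and 0.18 without garlic-fed mouse 2.

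Atf3 and Nr4a1 showed no difference that could be told from the spread between mice. Atf3, a stress-induced relative of the Fos and Jun proteins, had signals of 201.3, 210.1 and 129.4 in garlic-fed mice, against 164.2, 210.9 and 149.6 in control mice. Its log2 fold change was 0.03 (95% confidence interval -0.52 to 0.57), with the highest signal in a control mouse and the lowest in a garlic-fed one. Nr4a1 had signals of 954, 2024.7 and 1053.9 in garlic-fed mice, against 1005.9, 1220.8 and 1193.8 in control mice. Again garlic-fed mouse 2 stood above all the others, and the log2 fold change was 0.16 with it (95% confidence interval -0.38 to 0.7) and -0.18 without it.

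**Figure D2:**
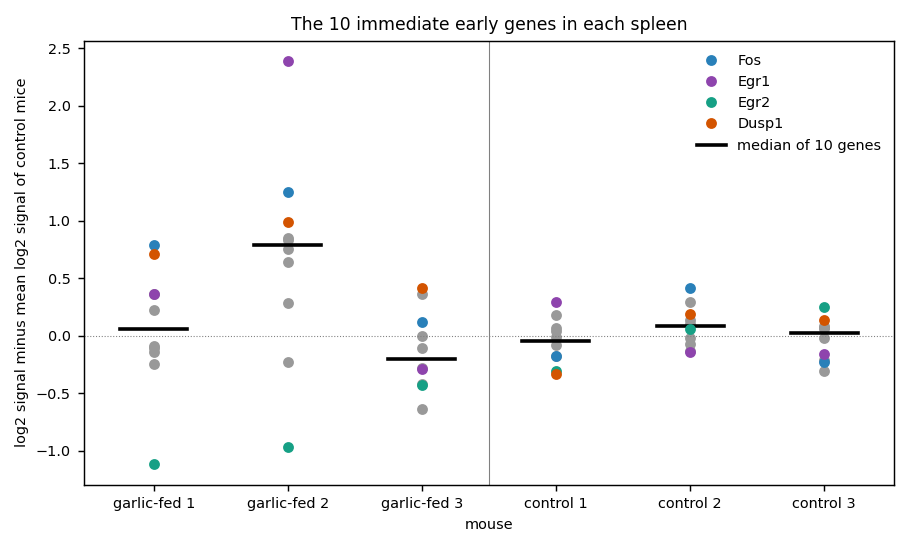
Log2 signal of each of the 10 immediate early genes (points, 1 probe set per gene, the brightest) in each mouse, minus the control average of that gene; the bar is the median of the 10 genes. The bar is at 0.79 in garlic-fed mouse 2 and between -0.2 and 0.08 in the other 5 mice. Control mice lie near 0 in part because their own average was subtracted.

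Read by mouse rather than by gene, garlic-fed mouse 2 stood apart. With 1 probe set per gene, 7 of the 10 genes were above the control range in garlic-fed mouse 2 and 1 was below it, where 28.2% of all genes tested were above and 34% below. In garlic-fed mouse 1, 4 genes were above and 4 below the control range (28.2% and 28.3% of all genes tested), and in garlic-fed mouse 3, 2 were above and 5 below (26.7% and 37%). The median of the 10 genes, as log2 signal minus the control mean, was 0.06, 0.79 and -0.2 in garlic-fed mice 1, 2 and 3, against -0.05, 0.08 and 0.02 in the control mice. The median of all genes tested lay between -0.041 and 0.01 on every array. Control mice lie closer to their own mean by construction. The SD over all genes tested was 0.21 in each control mouse, against 0.42, 0.38 and 0.45 in garlic-fed mice 1, 2 and 3.

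Other measures of garlic-fed mouse 2 were as follows. Its ratio of 3′ to 5′ signal of Gapdh, a sign of RNA integrity, was 0.999, against 0.978 and 0.769 in the other garlic-fed mice and 0.801 to 0.881 in control mice, and its median correlation with the arrays of its group was 0.966, against 0.966 to 0.97 in the other garlic-fed mice. Summed over 15 pancreas markers, the signal was 2310, 41200 and 2640 in garlic-fed mice, against 166000, 20900 and 75900 in control mice, so that garlic-fed mouse 2 had the most pancreatic signal of its group and lay within the control range. Control mouse 1, with the most pancreatic signal of all, had a median of the immediate early genes of -0.05 and the lowest Dusp1 of all. The median log2 fold change of these 15 markers was -4.52, with all 15 negative. Of the 15, 14 were lower at an unadjusted p under 0.05 (11.0% of all probe sets tested had such a p in either direction). None of the 15 was past the adjusted threshold (0.237% of all). Of the digestive enzyme genes among the 15, Cela1 had -1.79 and Prss2 had -3.72 (adjusted p = 0.269 and 0.231). By these brightest probe sets, both were smaller in size than the median. The other probe sets of Prss2 had -4.6, -4.67 and -4.2. Over 8 fat tissue markers the sums were 22300, 23700 and 10800 in garlic-fed mice, against 12600, 14000 and 13200 in control mice. Garlic-fed mice 1 and 2 were high, as for Fos and Ier2. The 6 fat markers tested had log2 fold changes from 0.09 to 1.02, with a median of 0.65. The 2 brightest were Scd1 (0.31) and Car3 (0.67), and the dimmer probe set 1460256_at of Car3 had 1.02. No pancreas or fat marker was under the floor on all arrays, and the part of either tissue in these differences was not tested.

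**Figure D3:**
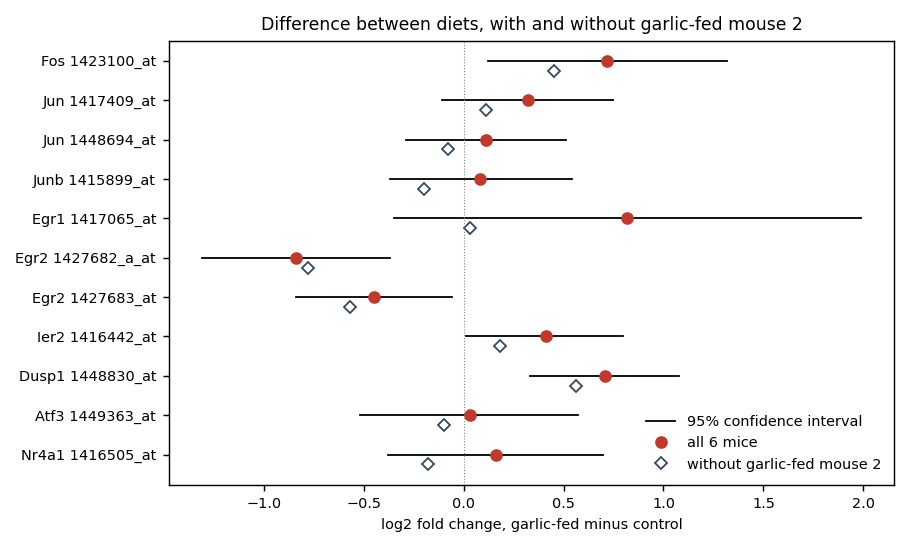
Log2 fold change, garlic-fed minus control, of the 11 probe sets tested, from all 6 mice (filled circles, with 95% confidence intervals from limma) and without garlic-fed mouse 2 (open diamonds). Without that mouse Egr1 lies at 0.03 and Jun 1448694_at, Junb, Atf3 and Nr4a1 lie below 0, while Dusp1 and both probe sets of Egr2 keep most of their difference.

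Among 40 further early response genes, 37 could be tested. Of these, 1 was higher past the adjusted threshold and none lower, where 0.237% of all probe sets tested passed in either direction. At an unadjusted p under 0.05 there were 9 higher and 2 lower of the 37, where 11.0% of all probe sets tested had such a p, and the median log2 fold change was 0.04. The one that passed was Ppp1r15a, which encodes the subunit that directs a phosphatase to the translation factor eIF2 during stress, with signals of 3131.2, 3608.3 and 4272.7 in garlic-fed mice, against 1448.3, 1717.1 and 2291.6 in control mice. It rose 2.04-fold (log2 fold change 1.03, SE 0.17, adjusted p = 0.048), and this call held in 7 of 16 alternatives, with adjusted p from 0.00166 to 0.431 over all of them. The call was lost without garlic-fed mouse 2 (0.108), garlic-fed mouse 3 (0.0673), control mouse 1 (0.192) or control mouse 2 (0.197).

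Ccn1, the gene of a secreted matrix protein and a classic target of SRF, was highest in garlic-fed mouse 2 by its brightest probe set, as Egr1 was, but lay above all control mice in the other garlic-fed mice too, with 818.7, 3158.8 and 463 in garlic-fed mice, against 234.1, 290.1 and 234 in control mice. Its log2 fold change was 2.08 (standard error 0.54, adjusted p = 0.17). Probe set 1438133_a_at of Ccn1 gave 463.3, 2063.1 and 267.5 in garlic-fed mice, against 177, 174.2 and 174.6 in control mice. By 1457823_at garlic-fed mouse 1 was highest, with 662.6, 249.1 and 114.2, against 200.8, 61.4 and 160.1 in control mice, so that the probe sets disagree on which spleen is highest. Fosl2, a further Fos relative, had 416.2, 835.4 and 527.4 in garlic-fed mice, against 337.8, 385.4 and 369.6 in control mice (log2 fold change 0.64, adjusted p = 0.317). Its dimmer probe set 1422931_at gave -0.15. Crem, a cAMP-responsive relative of CREB, had 331.7, 520.6 and 536.7 in garlic-fed mice, against 295.9, 291.6 and 322.4 in control mice (log2 fold change 0.58, adjusted p = 0.296). In Fosl2 and Crem, unlike in Fos, garlic-fed mouse 3 also lay above all control mice. Of the 37 further early response genes tested, 7 were higher in all garlic-fed mice (7.52% of all probe sets tested).

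Egr3, named here after its values were seen and encoding a further factor of the Egr family, had signals of 1674.3, 1199.5 and 1438 in garlic-fed mice, against 2374.3, 1875.7 and 1979 in control mice. All garlic-fed mice lay below all control mice. That held for 4 of the 37 further early response genes tested, against 9.29% of all probe sets tested. The log2 fold change of Egr3 was -0.54 (standard error 0.14, unadjusted p = 0.00328, adjusted p = 0.176). Thus Egr2 and Egr3 had lower signals in garlic-fed mice while Egr1 was high in garlic-fed mouse 2 and near the control range in the other garlic-fed mice, and neither Egr2 nor Egr3 passed the adjusted threshold.

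The genes that relay signals to the immediate early genes differed little. Of 19 kinases and transcription factors upstream, none passed the adjusted threshold. At an unadjusted p under 0.05, 2 of the 19 were higher and 1 lower (11.0% of all probe sets tested), and their log2 fold changes lay between -0.46 and 0.37 with a median of 0.05. For Mapk14, which encodes p38α, the log2 fold change was 0.2 (adjusted p = 0.426) and for Map2k3, which encodes a kinase that activates it, 0.37 (adjusted p = 0.297). Elk1 and Elk3, partners of SRF at the CArG box, had -0.46 (adjusted p = 0.548) and -0.37 (adjusted p = 0.318). These 4 were named because their groups did not overlap by the brightest probe set. That held for 5 of the 19, with 3 higher and 2 lower in garlic-fed mice (7.52% and 9.29% of all probe sets tested). The other tested probe sets of Mapk14 had overlapping groups, with log2 fold changes from -0.48 to 0.28. Groups also overlapped for 1421896_at of Elk1 (-0.2) and 1435143_at of Elk3 (-0.23), but not for 1417662_at of Elk3 (-0.22) or 1425456_a_at of Map2k3 (0.55). Of 19 other MAP kinase phosphatases and repressors of Egr or AP-1 factors, none passed. The unadjusted p was under 0.05 in 4 of the 19 (11.0% of all probe sets tested), of which 2 were higher and 2 lower, and the median was 0.01. In this list Dusp7, which encodes a phosphatase of ERK, had 554.5, 483.2 and 503.9 in garlic-fed mice, against 404.8, 444.9 and 362.8 in control mice (log2 fold change 0.35, adjusted p = 0.392). Its dimmer probe sets 1427416_x_at and 1460393_a_at had overlapping groups and log2 fold changes of 0.13 and -0.2. Batf, which encodes an AP-1 factor of lymphocytes, was lower in all garlic-fed mice by a log2 fold change of -0.18 (adjusted p = 0.639). In this list 1 of the 19 was higher and 1 lower in all garlic-fed mice (7.52% and 9.29% of all probe sets tested).

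Heat shock genes, which respond to stress through their own factor, had positive fold changes over the whole list. Of 14 tested, all had a positive log2 fold change, 12 were higher at an unadjusted p under 0.05 (11.0% of all probe sets tested had such a p in either direction), none passed the adjusted threshold (0.237% of all), and the median was 0.57. Hspa1b, which encodes Hsp70, had 820.3, 7162.6 and 4277.8 in garlic-fed mice, against 275.2, 354.6 and 442.4 in control mice (log2 fold change 3.06, adjusted p = 0.0911). Hsph1, which encodes Hsp110, had 1913.4, 7229.9 and 5550.3 in garlic-fed mice, against 798, 1311.1 and 1417 in control mice (log2 fold change 1.9, adjusted p = 0.112). The cochaperone genes Dnaja1 and Dnajb1 had log2 fold changes of 1.07 and 1.05 (adjusted p = 0.0988 and 0.145). By its brightest probe set, each of these 4 genes was highest in garlic-fed mouse 2. The same mouse was highest for Fos, Jun, Junb, Egr1, Ier2, Dusp1 and Nr4a1. Probe set 1459835_s_at of Dnaja1 instead gave 2140.6, 3748.4 and 4358.7 in garlic-fed mice, with garlic-fed mouse 3 highest. Garlic-fed mouse 3, second for the 4 heat shock genes by their brightest probe sets, lay above all control mice for Dusp1 and Jun 1417409_at. It lay within or below the control range for Jun 1448694_at, Fos, Junb, Egr1, Ier2 and Nr4a1. The part of a stress response in the immediate early gene signals was not tested. Erythroid markers were also higher, with 8 of 8 tested positive, and sums over 9 genes of 46500 to 65300 in garlic-fed mice and 31500 to 39200 in control mice. Hba-a1, which is in these sums, was too dim to be tested. The smallest log2 fold change was that of Alas2 (0.2, adjusted p = 0.683 from limma), with overlapping groups. Kel (1.4, adjusted p = 0.0243) and Ermap (1.27, adjusted p = 0.0139), which encode red cell surface proteins, rose past the adjusted threshold (0.237% of all probe sets tested passed). Both calls were lost without control mouse 1 or 2, where no probe set passed. Klf1 (1.34) and Epb42 (1.07) did not pass. The dimmer probe set 1417338_at of Epb42 had 0.86, with overlapping groups. Sums over 8 red pulp macrophage markers were 56600 to 68400 in garlic-fed mice and 54300 to 59000 in control mice (log2 fold changes of 0.38 for Cd5l and 0.11 for Vcam1). Sums over 7 neutrophil markers (Camp 0.76, Ngp 0.59 as log2 fold changes) were 17000 to 23200 in garlic-fed mice and 14400 to 18200 in control mice. The part of these cells in the immediate early gene signals was not tested.

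**Figure D4:**
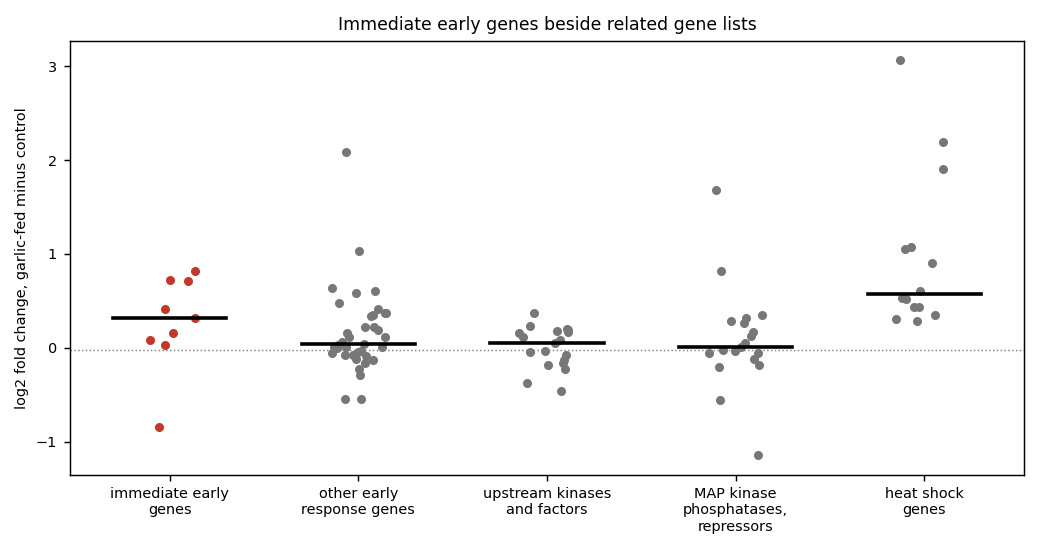
Log2 fold change, garlic-fed minus control, of each gene tested (points, spread sideways for legibility) in the immediate early genes and 4 related lists; black bars are list medians and the dotted line is the median of all genes tested, -0.028. From left to right the medians are 0.32, 0.04, 0.05, 0.01 and 0.57.

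The genes whose profile over the 6 mice was closest to the mean profile of the 9 immediate early genes tested were Rps15a-ps6, Klhl42, Setd2, Kcng2 and Sos1, with root mean square differences of 0.0779 to 0.122 on the log2 scale. Each was highest in garlic-fed mouse 2, which follows from the choice, since the mean profile was itself highest in that mouse. Sos1, which encodes an activator of Ras upstream of ERK, had 1413.8, 1758.7 and 1037.5 in garlic-fed mice, against 1050.6, 1185.4 and 1038.4 in control mice. Rps15a-ps6 is a ribosomal protein pseudogene whose probe set may also read its parent gene. With 6 mice, this likeness is a description only.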

How the data were processed

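Values are MAS5 signal intensities deposited by the authors, 1 per probe set and array, for spleens of 3 garlic-fed and 3 control mice. MAS5 is named in the submitters' processing notes, and its version is not given in the sources used here. The trimmed mean of each array (2% off each end) is 500, as read from the values. The number of arrays limits the precision.

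The 64 control probe sets were dropped, leaving 45037. Probe sets were named from the platform annotation, and those of several genes (932) or none (9160) were not named. The lowest 20% of signals were raised to 23.5 before the log2 step, and the 27022 probe sets whose mean log2 signal exceeded 6.08 (40th percentile) were tested. The fit was limma 3.58.1 (R 4.3.3; lmFit, eBayes with trend), adjusted by Benjamini-Hochberg over all of them. It was tested on simulated data. A gene of a list was represented by its brightest probe set. Figures were drawn with matplotlib 3.10.9 (Python 3.11.15).

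The members and lists were chosen with earlier results of these data known. Named are all members with every probe set, up to 4 genes per list with the largest change among those whose groups do not overlap (otherwise the 2 brightest), and the 5 genes nearest in profile. Genes outside this rule are said to be so. Alternatives were quantile normalization, median centring, no floor or a higher one, no filter or a stricter one, no variance trend, the methods' ANOVA, the replicate number of the labels entered as a block, removal of 1 array at a time and averaging a gene's probe sets.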

Additional observations from a re-analysis of the deposited data

How the results depend on the processing

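No member passed the adjusted threshold in any alternative except with the replicate number as a block, where 1 did, Egr2 1427682_a_at (log2 fold change -0.84, adjusted p = 0.0359). Same-numbered mice of the diets are different animals, with correlations of deviations of 0.000642, -0.176 and 0.0781. Garlic-fed mice 1 and 2 were closest to control mice 2 and 1, and garlic-fed mouse 3 to control mouse 3. With so few mice these correlations cannot show whether the numbers mark a shared batch. Over all probe sets 64 passed, against 295 with the block, 151 with median centring, 11 without the filter (3908 at an unadjusted p under 0.05), and 0 without the variance trend (2812) or with the methods' ANOVA on log2 (2548) or linear signals (2514). With 1 array left out the count ran from 0 (without control mouse 1 or 2, with 1931 and 2272 at an unadjusted p under 0.05) to 111. Members at an unadjusted p under 0.05 numbered 5, against 3 without the filter or the trend, 2 with either ANOVA and 2 to 5 with 1 array left out.

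The median of the members lay between 0.03 (without garlic-fed mouse 2) and 0.43 with 1 array left out, against 0.32 with all 6, so that garlic-fed mouse 2 gave most of it. Over 175 refits of single probe sets of the members, 7 changed sign, all with 1 array left out: without garlic-fed mouse 2, Jun 1448694_at (-0.08), Junb (-0.2), Nr4a1 (-0.18) and Atf3 (-0.1); and Atf3 without garlic-fed mouse 1 (-0.07), control mouse 1 (-0.01) or control mouse 3 (-0.08). The highest values with 1 array left out were 0.23 for Jun 1448694_at and 0.36 for Nr4a1 (both without garlic-fed mouse 1) and, without garlic-fed mouse 3, 0.26 for Junb and 0.25 for Atf3. No sign changed under quantile normalization or median centring. Atf3 had no value under the stricter filter, which left it out. The cause of these changes was not tested.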

Other observations

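Of the related phosphatases, 3 with overlapping groups had the widest differences, named after their values were seen. Dusp8, which encodes a phosphatase of JNK and p38, had signals of 125.4, 209.3 and 229.3 in garlic-fed mice, against 46.2, 131 and 30 in control mice (log2 fold change 1.68, SE 0.49, limma's adjusted p = 0.224). Dusp14 had 36, 46.1 and 130.8 in garlic-fed mice, against 154.8, 106.9 and 140.4 in control mice (-1.14, adjusted p = 0.388). Both were dim, with mean log2 signals of 6.67 for Dusp8 and 6.48 for Dusp14, near the limit of 6.08 for testing. Their brighter group brought each past that limit, and their lowest signals, 30 and 36, were near the floor of 23.5. Dusp4, itself a target of ERK signaling, had 137.5, 191.3 and 167.7 in garlic-fed mice, against 322.3, 250.2 and 174.5 in control mice (-0.56, adjusted p = 0.45). None passed the adjusted threshold.

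Socs3, a feedback inhibitor of cytokine receptors, was lower in all garlic-fed mice, with 806.2, 1243.7 and 1173.3, against 1764.7, 1392.3 and 1460.8 in control mice (log2 fold change -0.54, adjusted p = 0.258). Rhob and Ccn2, both early response genes of stressed or stretched cells, were higher in all garlic-fed mice, with log2 fold changes of 0.34 (adjusted p = 0.214) and 0.48 (adjusted p = 0.218). Of the 37 early response genes tested, 7 were higher and 4 lower in all garlic-fed mice (7.52% and 9.29% of all probe sets tested). These 3 genes were also named after their values were seen.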
